A study of Homo sapiens with 2 samples.

Results

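The genes described here are those of the tumour necrosis factor (TNF) superfamily and of the signalling that runs from its receptors to the transcription factor NF-kB. Members were chosen by gene symbol, with earlier results of these data already known. They are genes whose symbol begins with TNFSF, TNFRSF, TNFAIP, TRAF or BIRC and a digit or with NFKB, together with TNF, LTA, LTB, FAS, REL, RELA, RELB, IKBKB, IKBKG and CHUK where annotated. The mitotic gene BIRC5 was left out. The array carried 76 probes for 70 such genes, and 62 genes had a value on at least 1 array, of 10750 named genes that did. Of the 62, 52 were measured on both arrays, 8 on the depletion array alone and 2 on the transfection array alone.

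Human mesothelioma cell lines were compared on 2 arrays of 2 colours, with 1 array per comparison. The first array set ACC-MESO1 cells depleted of CD26 against control ACC-MESO1 cells. The other array set MSTO-211H cells that had received a CD26 insert through the vector pLNCX2 against control MSTO-211H cells. Per the labels, total RNA came from cultures in RPMI medium with fetal calf serum. The labels give both siRNA and shRNA as the depleting agent, and state neither the treatment of the control cells nor whether the transfected cells were a clone or a pool. CD26, encoded by DPP4, is a dipeptidyl peptidase of the cell surface.

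Every value below is a log2 ratio of manipulated over control cells, so that 1 is 2-fold higher and -1 is 2-fold lower in the manipulated cells. A ratio holds no level, so genes are compared only by their difference and never by abundance. Without replicate arrays no test could be made, and "past 2-fold" is a description of a single pair of RNA samples. Control cells were labelled with Cy5 and manipulated cells with Cy3 on both arrays, so dye and manipulation cannot be told apart on either. The cell lines differed between the arrays, so cell line and manipulation cannot be told apart between them. Since RNA came from whole cultures, fewer cells that express a gene and less RNA per cell cannot be told apart.

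DPP4 itself stood at -3.92 after depletion and 5.51 after transfection, in the direction of the labels. Of 10 mesothelial markers, 9 had a value on each array. They ranged from -0.37 to 0.59 in depleted cells, and from -1.31 to 0.66 in transfected cells, where mesothelin (MSLN, -1.31) and KRT18 (-1.16) were past 2-fold lower. Of 8 lymphocyte and myeloid markers, 2 had a value in the depletion comparison, CD14 (0.34) and CD68 (0.47). In the transfection comparison 3 had one, CD3E at 1.88, CD14 at -0.30 and CD68 at -0.89. Since a ratio holds no level, the value of CD3E does not show that the gene was expressed. Of 4 endothelial markers, VWF, CDH5 and KDR were at -0.22, -0.07 and 0.15 in depleted cells. VWF and KDR were each at -0.42 in transfected cells. The only repeat measurement was that of different probes of a gene, whose pooled SD was 0.42 over 566 genes of the depletion array and 0.45 over 471 genes of the transfection array.

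TNF superfamily ligands are mostly membrane proteins that bind trimeric receptors on the same or another cell. The receptors recruit TRAF adaptors and the ubiquitin ligases BIRC2 and BIRC3, which lead to the IkB kinase complex (IKK). The kinase marks IkB proteins for destruction, and freed NF-kB dimers enter the nucleus and switch on genes that include their own inhibitors. In a slower, non-canonical branch, loss of TRAF3, or of BIRC2 and BIRC3, lets the kinase MAP3K14 build up. NFKB2 is then processed to work with RELB.

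In CD26-depleted ACC-MESO1 cells, 7 of the 60 measured members were past 2-fold higher and 0 were past 2-fold lower. Over all 10347 named genes of that array, 3.31% were past 2-fold higher and 1.56% past 2-fold lower, against 11.7% of the members on the higher side. These 7 were the apoptosis inhibitor BIRC3, the adaptor TRAF1, the death ligand TNFSF10 (TRAIL), the inhibitor NFKBIE, the NF-kB subunit RELB, the deubiquitinase TNFAIP3 (A20) and the receptor TNFRSF9 (4-1BB). Each of the 7 rested on a single probe. They came from 7 different roles in the pathway, and several are known as targets of NF-kB that feed back on it. The median of all measured members was 0.15, against 0.01 for all named genes, and 43 members were above 0, or 71.7% against 51.3% of all genes.

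In CD26-transfected MSTO-211H cells, 2 of 54 measured members were past 2-fold higher, namely RELA and STEAP4, and IKBKB was past 2-fold lower. These shares, 3.70% and 1.85%, lay beside 4.09% and 1.37% of all 9359 named genes, so they were near the background. The median was -0.04, against 0.01 for all genes, and 25 members were above 0, or 46.3% against 50.7%. When an array was centred on its ribosomal protein genes, all values moved up by 0.31 in depleted and by 0.23 in transfected cells. The medians of all genes moved by the same amounts. The member median in transfected cells then lay above 0, at 0.19, and any single value, group median or count by sign given here would likewise change where a value is negative by less than these shifts. Past a lower threshold of 0.5 were 14 members on the higher side and 2 on the lower side in depleted cells, against 12.8% and 9.80% of all genes (23.3% and 3.33% of the members). In transfected cells 3 members were past 0.5 on the higher side and 9 on the lower, against 13.1% and 9.40% of all genes (5.56% and 16.7% of the members). Past 1.5 were BIRC3 and TRAF1 in depleted cells, where 1.21% of all genes were on the higher and 0.213% on the lower side, and 0 members in transfected cells (1.51% and 0.235% of all genes). Among genes measured in both comparisons, 6 of 52 members were past 2-fold higher in depleted cells (2.27% of all genes) and 0 lower (1.30%), and 1 was past 2-fold higher (2.99%) and 1 lower (1.28%) in transfected cells.

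None of the members past 2-fold in one comparison was past 2-fold in the other, and TRAF1 and STEAP4 were each measured in a single comparison. The share of all named genes past 2-fold in both comparisons was not counted. With so few members past 2-fold, nothing about the members is read from this lack of overlap.

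**Figure D1:**
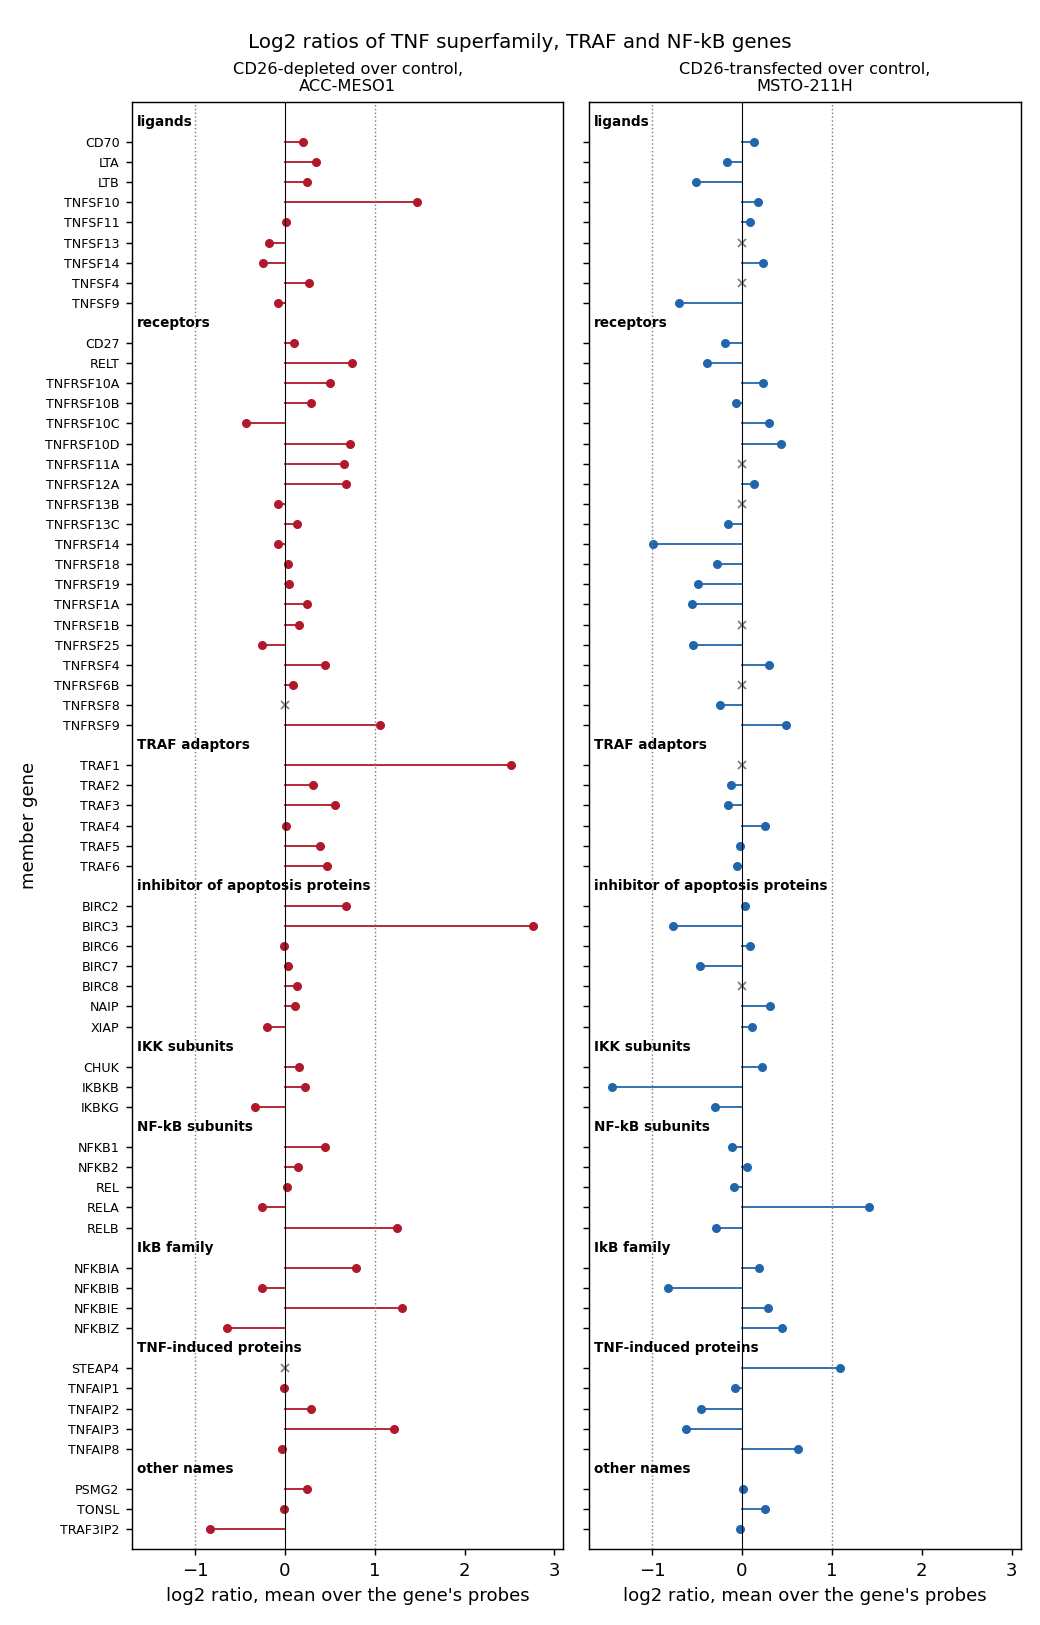
Log2 ratios of the 62 member genes (rows, by role) in CD26-depleted over control ACC-MESO1 cells (left, red) and in CD26-transfected over control MSTO-211H cells (right, blue). Each point is the mean over a gene's probes on 1 array, dotted lines mark 2-fold, and a cross marks a gene with no value. BIRC3 (2.77) and TRAF1 (2.52) reach farthest to the right in depleted cells, and IKBKB (-1.44) and RELA (1.42) are the extremes in transfected cells.

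BIRC3 and TRAF1 stood far above the other members. BIRC3, a ubiquitin ligase that binds TRAF2 and blocks caspase activation by death receptors, was at 2.77 in depleted cells, which is 6.80-fold. It ranked 9 from the top of the 10347 named genes of that array. In transfected cells it was at -0.77, or 1.70-fold lower, and ranked 313 from the bottom of 9359. TRAF1, which lacks the RING domain of other TRAFs and binds BIRC3 together with TRAF2, was at 2.52 in depleted cells, or 5.73-fold, at rank 12. It had no value in the transfection comparison. Genes with a value in the depletion comparison alone were past 2-fold in either direction in 13.2% of 1391 cases.

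The promoter windows of the members were searched for the kappaB consensus, the DNA letters that NF-kB dimers are known to bind. RefSeq windows of GRCh38.p14, from 250 bases before to 50 bases after a start site, were available for 48 of the 62 members. For 3 members past 2-fold higher in depleted cells and for NFKBIA, a classical NF-kB target next below that threshold, a stretch before the start is shown because each holds the consensus. For BIRC3 it is all 250 bases of the window before the start, and for TNFAIP3, TNFRSF9 and NFKBIA it is cut to the last 120. Capitals mark consensus matches on either strand, and each sequence runs 5′ to 3′ on the strand of its gene and ends at the base before the start.

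The stretch shown for BIRC3 is chr11:102317234-102317483 on the + strand, that of TNFAIP3 is chr6:137867139-137867258 on the + strand, that of TNFRSF9 is chr1:7940840-7940959 on the - strand, and that of NFKBIA is chr14:35404750-35404869 on the - strand.
BIRC3: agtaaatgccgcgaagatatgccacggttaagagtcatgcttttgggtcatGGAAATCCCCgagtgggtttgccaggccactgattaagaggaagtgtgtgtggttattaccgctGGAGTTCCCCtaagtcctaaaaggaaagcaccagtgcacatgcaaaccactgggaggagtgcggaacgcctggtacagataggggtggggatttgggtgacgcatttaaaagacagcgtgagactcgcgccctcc
TNFAIP3: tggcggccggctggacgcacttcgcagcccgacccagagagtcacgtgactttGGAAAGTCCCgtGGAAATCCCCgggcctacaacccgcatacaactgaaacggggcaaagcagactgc
TNFRSF9: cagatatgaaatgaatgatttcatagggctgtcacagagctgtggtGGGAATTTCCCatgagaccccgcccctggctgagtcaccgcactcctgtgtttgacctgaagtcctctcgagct
NFKBIA: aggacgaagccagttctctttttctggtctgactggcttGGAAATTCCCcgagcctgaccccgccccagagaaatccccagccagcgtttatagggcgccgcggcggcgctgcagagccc

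BIRC3 held 2 matches, which began 199 and 135 bases before the start, both on the strand opposite to the gene. TNFAIP3 also held 2, beginning 67 and 55 bases before the start. In TNFRSF9 a match on each strand overlapped by all but 1 base, beginning 74 and 73 bases before the start. The match of NFKBIA began 81 bases before the start. Neither the 3 windows of TRAF1 nor the window of TNFSF10 held the consensus. RELB and NFKBIE, also past 2-fold higher in depleted cells, had no window and were not searched. The same holds for IKBKB.

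The consensus was found in 5.91% of all 35116 RefSeq windows and in 23 of the 76 windows of members. By gene, 19 of the 48 members with a window held it in at least 1 window, against 9.12% of the 8637 array genes with a window. A looser form, GGGNNNNNCC on either strand, of which every consensus match is an instance, was in 58.7% of all windows and 89.5% of member windows. The ratios of members with and without the consensus overlapped. In depleted cells the 19 members with it had a median of 0.04 and the 27 measured members without it a median of 0.15. In transfected cells the medians were -0.13 over 18 members with it and -0.02 over 23 without it. The shares past 2-fold higher in depleted cells ran the other way, with 3 of 19 members with the consensus (15.8%) and 2 of 27 without it (7.41%). Over all named genes of the depletion array, 4.31% of 765 genes with the consensus were past 2-fold higher, and 3.11% of 7563 without it.

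**Figure D2:**
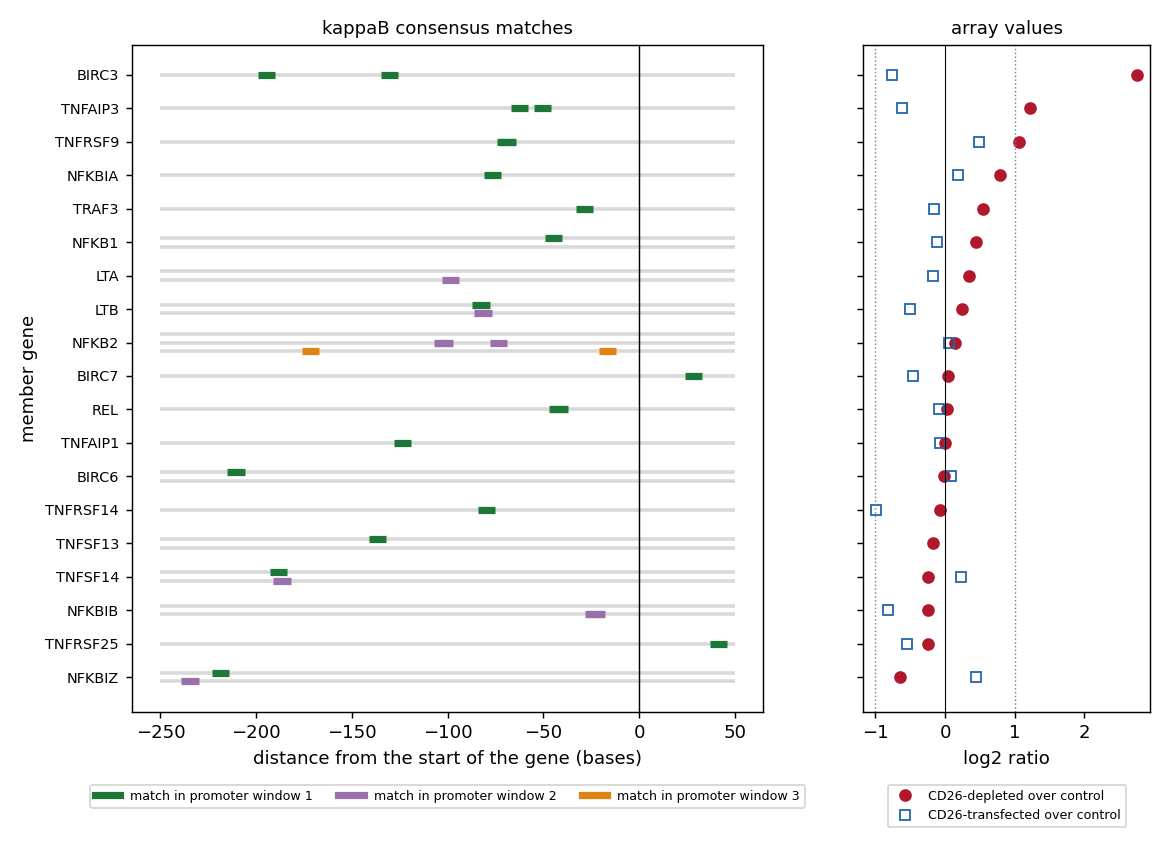
Positions of kappaB consensus matches (left, in bases from the start of the gene, 1 grey line per RefSeq promoter window) in 19 member genes, and the log2 ratios of the same genes (right, red circles for CD26-depleted over control ACC-MESO1, blue squares for CD26-transfected over control MSTO-211H). Genes run from the highest to the lowest ratio in depleted cells, from BIRC3 (2.77) to NFKBIZ (-0.64). Only genes with a match are drawn, so the figure cannot compare them with members that lack one.

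Among the ligands, TNFSF10 stood apart in depleted cells. TNFSF10, or TRAIL, triggers apoptosis through death receptors and is also an interferon-responsive gene. It was at 1.47 in depleted cells, or 2.77-fold, and at 0.17 in transfected cells. The other 8 measured ligands of the depletion array lay between -0.24 (TNFSF14) and 0.34 (LTA), all within the pooled SD between probes. TNF itself had no value in either comparison, nor did TNFSF8, TNFSF13B and TNFSF18. In transfected cells the lowest ligands were TNFSF9, the 4-1BB ligand, at -0.71, and LTB, the membrane anchor of lymphotoxin, at -0.51. The highest was TNFSF14, or LIGHT, at 0.23. TNFSF13 (APRIL) rested on probes of opposite sign in depleted cells, at -0.45 and 0.10. The remaining ligands were the OX40 ligand TNFSF4 (0.27 in depleted cells) and the RANK ligand TNFSF11 (0.01 in depleted and 0.09 in transfected cells).

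Several neighbours on a chromosome differed. TNFSF9, CD70 and TNFSF14 lie side by side on chromosome 19 and were at -0.71, 0.13 and 0.23 in transfected cells. BIRC3 and its paralog BIRC2 lie side by side on chromosome 11, and in depleted cells BIRC2 was at 0.68 against 2.77 for BIRC3. In transfected cells BIRC2 was at 0.04 and BIRC3 at -0.77.

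Of the receptors, 15 of 19 were above 0 in depleted cells (78.9%, against 51.3% of all genes), with a median of 0.15, as over all members. TNFRSF9 was past 2-fold higher, as were 3.31% of all genes. TNFRSF9, or 4-1BB, a costimulatory receptor of T cells, was at 1.06 in depleted cells and 0.49 in transfected cells, the highest receptor in each comparison. Its value in depleted cells lay just past 2-fold. Next in depleted cells were RELT (0.74), TNFRSF10D (0.73), the TWEAK receptor TNFRSF12A (0.69) and TNFRSF11A (RANK, 0.66). The lowest was TNFRSF10C at -0.44, with probes at -0.59 and -0.29.

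The receptors of TRAIL differed among themselves. The death receptors TNFRSF10A and TNFRSF10B were at 0.50 and 0.29 in depleted cells, and at 0.24 and -0.07 in transfected cells. Of the decoy receptors, which bind TRAIL without passing on a full death signal, TNFRSF10D was at 0.73 in depleted cells and TNFRSF10C at -0.44. In transfected cells these decoys were at 0.43 and 0.30. The 4 genes lie side by side on chromosome 8 and are close paralogs, whose probes can cross-hybridise.

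In transfected cells 10 of 16 receptors were below 0 and 6 above (37.5%, against 50.7% of all genes above), with a median of -0.17. None was past 2-fold, against 4.09% of all genes higher and 1.37% lower. The lowest was TNFRSF14 (HVEM, a receptor of LIGHT) at -0.99, just inside 2-fold, which was at -0.07 in depleted cells. TNFRSF1A, the main receptor of TNF, was at -0.56 in transfected cells and 0.24 in depleted cells. TNFRSF25 was at -0.55, with probes at -0.74 and -0.35. In depleted cells its probes were at -0.56 and 0.06, so they differed in sign there. TNFRSF19 was at -0.49 in transfected cells, and TNFRSF1B, the other TNF receptor, had a value of 0.15 in depleted cells and none in the transfection comparison.

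The other receptors lay nearer to 0. TNFRSF4 (OX40) was at 0.45 in depleted and 0.30 in transfected cells, and its neighbour on chromosome 1, TNFRSF18 (GITR), at 0.04 and -0.28. The CD70 receptor CD27 was at 0.10 and -0.19, and TNFRSF13C, a receptor of the B cell factor BAFF, at 0.14 and -0.16. In depleted cells alone, TNFRSF6B, a soluble decoy for FAS ligand, was at 0.09 and TNFRSF13B at -0.07, and in transfected cells alone TNFRSF8 (CD30) was at -0.25. TNFRSF11B, TNFRSF17 and TNFRSF21 had a value in neither comparison.

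All 6 TRAF adaptors were above 0 in depleted cells, as were 51.3% of all genes, and their median was 0.43. However, 5 of these adaptors were well short of 2-fold. After TRAF1, the highest was TRAF3, which restrains the non-canonical branch, at 0.55. TRAF6, the adaptor of interleukin-1 and Toll-like receptors, was at 0.47, TRAF5 at 0.39, TRAF2 at 0.31 and TRAF4 at 0.01. In transfected cells the 5 measured TRAFs lay between -0.16 (TRAF3) and 0.26 (TRAF4). TRAF2 was at -0.12 there, TRAF6 at -0.05 and TRAF5 at -0.02, all within the pooled SD between probes.

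The inhibitor of apoptosis proteins other than BIRC3 were short of 2-fold in depleted cells. BIRC2 was at 0.68, and the remaining 5 lay between -0.20 (XIAP, the direct caspase inhibitor) and 0.14 (BIRC8, a paralog of XIAP). NAIP, which senses bacterial proteins, was at 0.12, BIRC7 at 0.04 and the very large ubiquitin ligase BIRC6 at -0.01. In transfected cells BIRC7 was at -0.46, BIRC6 at 0.09, XIAP at 0.11 and NAIP at 0.31. BIRC3 was the lowest of the 6 measured there.

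The IKK complex and the NF-kB subunits held the extremes of the transfection comparison. IKBKB, the catalytic subunit that drives the canonical branch, was at -1.44 in transfected cells, or 2.72-fold lower, and ranked 30 from the bottom of 9359 genes. In depleted cells it was at 0.23. The other catalytic subunit, CHUK, was at 0.22 in transfected and 0.15 in depleted cells, and the regulatory subunit IKBKG at -0.30 and -0.33. IKBKB thus lay apart in transfected cells, where CHUK and IKBKG were within the pooled SD between probes of 0. In depleted cells IKBKB, CHUK and IKBKG were all within it.

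RELA, the p65 subunit of the canonical dimer, was at 1.42 in transfected cells, or 2.67-fold, and at -0.25 in depleted cells. RELB, the partner of NFKB2 in the non-canonical branch, was at 1.25 in depleted cells, or 2.38-fold, and at -0.29 in transfected cells. As deposited, these subunits had opposite signs between the comparisons, but with ribosomal centring RELA was at 0.06 in depleted cells, and so above 0 in both. NFKB1 was at 0.45 in depleted and -0.11 in transfected cells, and REL at 0.03 and -0.09. NFKB2 averaged 0.15 in depleted cells, with probes at 0.00 and 0.29, and 0.05 in transfected cells, with probes at 0.12 and -0.01. It was the member of this group with several probes. The RELA and IKBKB values each came from a single probe, as did those of every other member past 2-fold in either comparison.

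The IkB family held values of both signs in depleted cells. NFKBIE, which retains NF-kB in the cytoplasm, was at 1.31, or 2.48-fold, and the classical feedback inhibitor NFKBIA at 0.79, or 1.73-fold. NFKBIB was at -0.25, and NFKBIZ, a nuclear IkB that acts as a cofactor for some NF-kB targets, at -0.64. In transfected cells NFKBIB was at -0.83, NFKBIA at 0.19, NFKBIE at 0.29 and NFKBIZ at 0.45. NFKBIE was above 0 in both comparisons. The signs of NFKBIB in depleted cells and of NFKBIA in transfected cells depended on the centring: NFKBIB was at 0.06 in depleted cells with ribosomal centring, and NFKBIA at -0.02 in transfected cells when every autosome was centred separately.

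Of the TNF-induced proteins, TNFAIP3, a ubiquitin-editing enzyme that ends NF-kB signalling, was at 1.22 in depleted cells, or 2.32-fold. In transfected cells it was at -0.62, or 1.54-fold lower. TNFAIP2 had the same order, at 0.29 and -0.46, short of 2-fold. TNFAIP8 was at -0.03 and 0.62, and TNFAIP1 at -0.01 and -0.08. STEAP4, a metalloreductase annotated here by its older symbol, was at 1.09 in transfected cells, just past 2-fold, and had no value in the depletion comparison. TNFAIP6 had a value in neither comparison.

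Of genes that met the rule by a longer or older name, TRAF3IP2, an adaptor of interleukin-17 receptors, was the lowest member in depleted cells at -0.84, and was at -0.02 in transfected cells. The proteasome assembly factor PSMG2 was at 0.25 and 0.01, and the DNA repair gene TONSL at -0.01 and 0.25. PSMG2 and TONSL are not signalling components of the families.

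The comparisons were then set side by side for the 52 members measured in both. Higher after depletion and lower after transfection were 21 members, or 40.4%, against 24.0% of 8956 named genes, and 8 members had the opposite pattern (15.4% against 22.9%). Higher in both were 16 members (30.8% against 26.6%), and 7 were lower in both (13.5% against 26.5%). With each value at least 0.5 in size, BIRC3 and TNFAIP3 were the members higher after depletion and lower after transfection, or 3.85% against 1.04% of all genes. At that size 0 members were lower after depletion and higher after transfection (1.36% of all genes), higher in both (2.19%) or lower in both (1.08%). Across the 52 members Pearson's r between the comparisons was -0.12, and without BIRC3 it was 0.01, so the members had no common order in the 2 cell lines. The members share the dye orientation of the arrays, and over all 8956 genes r was 0.06.

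**Figure D3:**
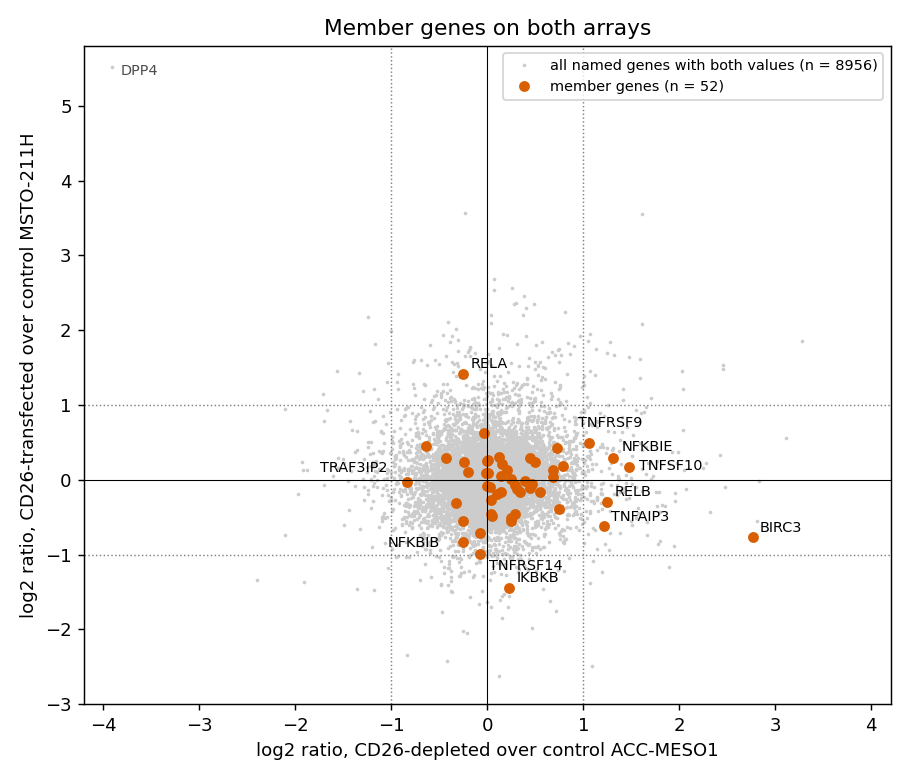
Log2 ratios in CD26-depleted over control ACC-MESO1 cells (horizontal) and CD26-transfected over control MSTO-211H cells (vertical) for 52 member genes (orange) and all 8956 named genes with both values (grey); dotted lines mark 2-fold. BIRC3 (2.77 and -0.77) lies to the lower right, RELA (-0.25 and 1.42) at the top and IKBKB (0.23 and -1.44) at the bottom of the members.

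Taken by the whole distribution, the members of the depletion comparison lay to the higher side of all genes and those of the transfection comparison did not. The middle part of the members, from the lower to the upper quartile, ran from -0.01 to 0.48 in depleted cells, against -0.23 to 0.27 for all genes. In transfected cells it ran from -0.30 to 0.23, against -0.24 to 0.28 for all genes. Most members were small in size: 39 of 60 in depleted cells and 38 of 54 in transfected cells lay within the pooled SD between probes of 0 (65.0% and 70.4%, against 71.0% and 73.5% of all genes).

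**Figure D4:**
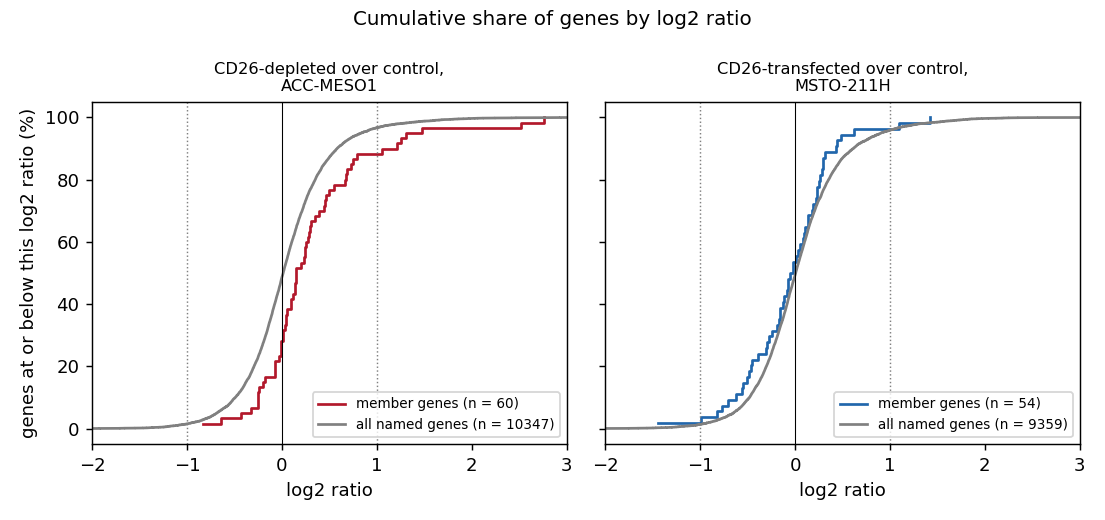
Cumulative share of genes (vertical, percent) at or below each log2 ratio (horizontal) for members (coloured) and all named genes (grey), in CD26-depleted over control ACC-MESO1 cells (left) and CD26-transfected over control MSTO-211H cells (right). The member curve lies to the right of the grey curve in depleted cells (medians 0.15 and 0.01), and close to it in transfected cells (medians -0.04 and 0.01).

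Genes outside the rule that belong to the same pathway were followed as 5 lists, from which members were removed. The lists were chosen with earlier results of these data known, so their shares beside all genes are not independent evidence. NF-kB target genes outside the families had a median of 0.71 over 26 measured genes in depleted cells, with 22 above 0 (84.6%, against 51.3% of all genes), 9 past 2-fold higher (against 3.31% of all genes) and 0 past 2-fold lower (against 1.56%). Besides chemokines (CCL5, 3.27; CXCL1, 2.46; CXCL8, 1.60; CXCL2, 1.33), these were the cyclin CCND1 (1.95), the syndecan SDC4 (1.57), complement C3 (1.55), the lymphatic growth factor VEGFC (1.05) and IER3 (1.04). The lowest was CSF3 at -0.61. The probes of CXCL8 stood at 0.09 and 3.11, so its mean is uncertain. In transfected cells the median of this list was -0.16 over 24 genes. There 2 genes, CCL5 (1.85) and CXCL1 (1.54), were past 2-fold higher, against 4.09% of all genes. The survival gene BCL2L1 (-1.01), the dendritic cell marker CD83 (-1.20) and IL1B (-1.68) were the 3 past 2-fold lower, against 1.37% of all genes.

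Adaptors and kinases of the pathway had a median of 0.20 over 21 genes in depleted cells. None was past 2-fold there, against 3.31% of all genes higher and 1.56% lower, so the list was near the background. MALT1, a paracaspase that relays signals to IKK, was the highest at 0.91, and the kinase MAP3K8 the lowest at -0.89. MAP3K14, the kinase of the non-canonical branch, was at 0.64 in depleted and 0.59 in transfected cells. In transfected cells RBCK1, a subunit of the linear ubiquitin ligase complex, was at 1.34. It was the 1 of 18 genes past 2-fold, against 4.09% of all genes higher and 1.37% lower. MALT1 was the lowest of the list there at -0.43, and the list median was -0.01. Negative regulators had medians of 0.08 and -0.13 over 8 genes, with USP18 highest (0.94 and 0.62) and TAX1BP1 lowest (-0.55 and -0.39).

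Death receptor and caspase genes lay on both sides of 0 in depleted cells. CFLAR, which encodes the caspase-8 inhibitor FLIP, was at 1.44, or 2.72-fold, and was the 1 of 10 genes past 2-fold, on an array where 3.31% of all genes were past 2-fold higher and 1.56% lower. CASP8 was the lowest at -0.91, with CASP9 (-0.88), APAF1 (-0.84) and DFFB (-0.83) near it, and the list median was -0.28. In transfected cells CFLAR was at 0.06, the list ran from BID (-0.68) to HTRA2 (0.67) with a median of -0.04 over 8 genes, and CASP8, APAF1 and DFFB had no value. TNF family members with other symbols had medians of -0.37 and 0.22 over 6 genes. None was past 2-fold, as would most sets of 6 be where 3.31% of all genes were higher and 1.56% lower in depleted cells, and 4.09% and 1.37% in transfected cells. EDAR, the ectodysplasin receptor, was the lowest of them in depleted cells at -0.94 and the highest in transfected cells at 0.94.

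**Figure D5:**
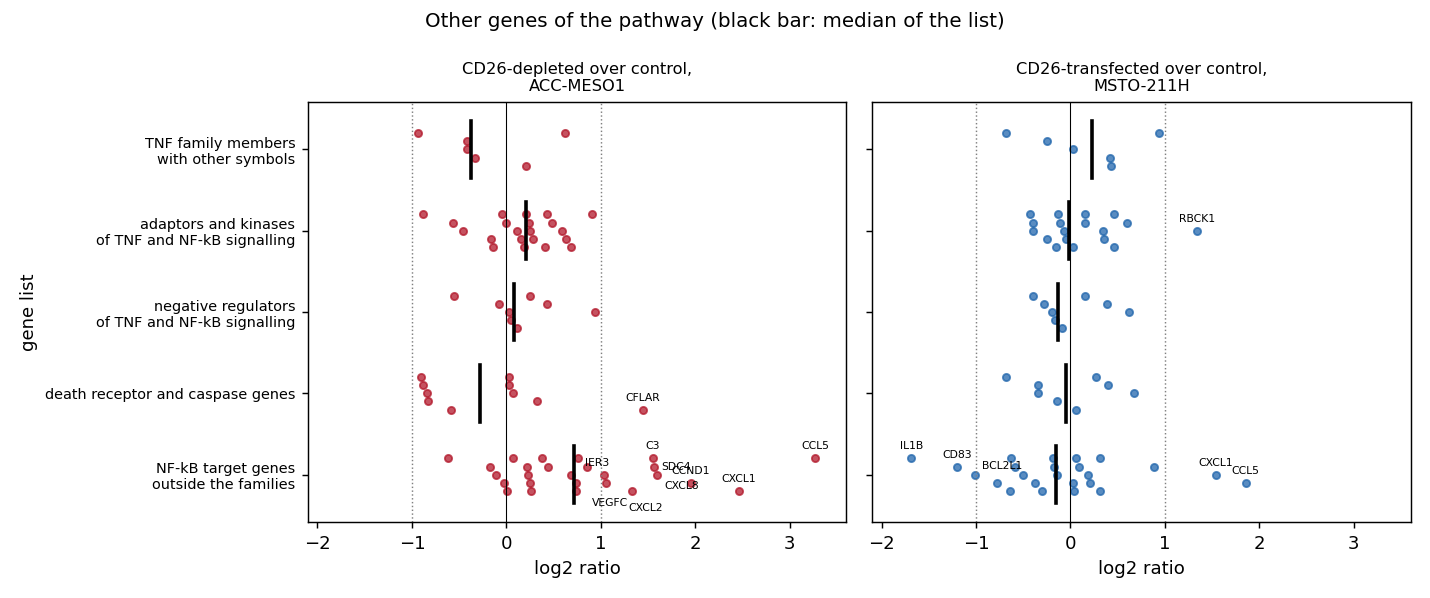
Log2 ratios of genes in 5 lists of the same pathway (rows; members of the rule removed) in CD26-depleted over control ACC-MESO1 cells (left) and CD26-transfected over control MSTO-211H cells (right). Each point is a gene, black bars are list medians, dotted lines mark 2-fold, and genes past 2-fold are named; NF-kB target genes have medians of 0.71 (left) and -0.16 (right).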

How the data were processed

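The data were normalized log2 ratios of manipulated over control cells, deposited by the authors, with Cy3 on the manipulated and Cy5 on the control cells, per the labels. Neither the background correction, the normalization method nor the rule for empty values is named in these sources. The probe median was 0 on each array. Of 24267 probes, 19622 were measured for depletion and 17737 for transfection; 13395 carried 1 gene symbol, 0 several and 10872 none. Symbols were updated through RefSeq (GRCh38.p14): 10076 were current, 2285 were updated by a unique synonym and 113 ambiguous ones were kept. A gene met the rule by its annotated or its updated symbol. Of the members, 8 did so by the annotated symbol alone (CD27, CD70, NAIP, PSMG2, RELT, STEAP4, TONSL and XIAP) and 1 by the updated symbol alone (TRAF3IP2). Probes of a gene were averaged; 4 members had several probes for depletion and 2 for transfection. Precision is limited by having 1 array per comparison, and no intensities were used.

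Genes named were all members, though not each with both values. Of the lists, the genes past 2-fold and most of the extremes were named, with MAP3K14, CASP9, APAF1 and DFFB besides. Members, lists and rules were chosen with earlier results of these data known, so the higher NF-kB targets are not independent evidence. Tables were made with pandas 2.3.3 in Python 3.11.15, and the gene averaging and counting were tested on simulated data. Alternatives were thresholds of 0.5 and 1.5, other centrings, a common spread, other probe rules, genes with both values, and a stricter member rule.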

Additional observations from a re-analysis of the deposited data

How the results depend on the processing

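The number of members past the threshold depended on the threshold. With a log2 ratio of 0.5, 14 members were higher and 2 lower in depleted cells, and 9 were lower in transfected cells. With 1.5, BIRC3 and TRAF1 were the 2 higher in depleted cells, and in transfected cells 0 were higher and 0 lower. Restriction to genes with both values left 1 member past 2-fold higher in transfected cells (RELA), since STEAP4 was removed. Centring on 38 ribosomal protein genes moved every value up by 0.31 in depleted and 0.23 in transfected cells. It raised the members past 2-fold higher in depleted cells to 10 (adding NFKBIA, RELT and TNFRSF10D) and the member medians to 0.46 and 0.19, so the median in transfected cells changed sign. The medians of all genes moved by the same amounts, so the position of the members relative to all genes did not change. The share of all genes past 2-fold under this centring is not given here. Under the other centring, spread, probe and member rules the counts past 2-fold kept their values, apart from 6 in place of 7 higher in depleted cells among genes with both values. The probe and member rules could not change these counts. Every member past 2-fold had a single probe, no member with several probes had one past 2-fold, and the stricter rule removed PSMG2, TONSL and TRAF3IP2, none past 2-fold. The common spread hardly moved values, with BIRC3 at 2.81 in place of 2.77 in depleted cells. No member past 2-fold changed sign under any of these alternatives. No paired analysis was possible because each comparison had 1 array.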
